A study of Mus musculus with 6 samples.

Results

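The BCL2 family genes described here are 10 rows of the deposited count matrix, out of 55414 gene identifiers. They were chosen by gene symbol. They are the guardians Bcl2, Bcl2l1, Bcl2l2 and Mcl1, the effectors Bak1 and Bok, and the BH3-only genes Bid, Bad, Bmf and Bcl2l11. BH3-only genes are classed by the short BH3 helix that their products share with the rest of the family. RNA was sequenced from the mouse line AY-mICC, from a study that targets COPI in models of the bile duct tumour intrahepatic cholangiocarcinoma. Its 2 groups are cells with a Copa knockdown (shCopa, n = 3) and control cells (shCon, n = 3). Both groups were grown in the same serum-supplemented medium and received no further treatment, per the labels. Copa encodes a subunit of the COPI coat, which returns vesicles from the Golgi to the endoplasmic reticulum. How many hairpins or clones stand behind each group is not given in the sources used here.

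BCL2 family proteins decide whether the outer mitochondrial membrane is opened, which commits a cell to apoptosis. Guardian proteins hold effectors and BH3-only proteins in check, effectors form the pores, and BH3-only proteins relay stress signals by activating effectors or by occupying guardians. Much of this control acts on the proteins, through binding, phosphorylation, cleavage and turnover, none of which RNA counts measure. Cholangiocytes and the tumours that arise from them are known to rely on MCL1 for survival.

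Copa was at 186, 182 and 187 CPM (counts scaled to a common library total) in shCopa, against 420, 517 and 527 CPM in shCon, so that shCopa kept 37.9% of the control level (edgeR adjusted p = 0.000149). Library totals ran from 19634876 to 24546142 estimated counts. Across genes, on the log2 CPM scale, shCon 1 correlated at 0.9734 and 0.9719 with the other shCon libraries, while shCon 2 with shCon 3 and every pair of shCopa libraries reached at least 0.9888. Of 7 cholangiocyte markers, 6 passed the filter on low counts. The summed level of all 7 was 1070 to 1150 CPM in shCopa and 1480 to 1760 CPM in shCon, but Epcam, one of the defining markers, stayed below 1 CPM in all 6 libraries. The leukocyte markers summed to 15 to 16.6 CPM in shCopa and 12.9 to 14.3 CPM in shCon, mostly from Cd68, which did not pass, while Ptprc was higher at 0.93 to 1.26 CPM in shCopa, against 0 to 0.0429 CPM in shCon (edgeR adjusted p = 0.000641). The hepatocyte markers summed to 23.0 to 24.2 CPM in shCopa and 8.37 to 13.2 CPM in shCon, with Cyp3a11 at 0 in all libraries and Alb called higher in shCopa. Fibroblast markers summed to 3.81 to 5.92 CPM in shCopa and 3.33 to 4.21 CPM in shCon, and endothelial markers to 1.55 to 3.59 CPM in shCopa and 0.0822 to 0.232 CPM in shCon. Among these, Acta2 and Kdr were called higher and Pdgfrb lower in shCopa. Their part in the results below was not tested. In bulk RNA, fewer cells of a type and less RNA per cell cannot be told apart. The labels do not say whether replicates were separate cultures, so each p-value here reflects only how these 6 libraries vary, and that variation may be technical.

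All 10 members passed the filter on low counts, with 287 to 6945 counts in any library. In shCopa cells, Bak1 and Bid rose 1.32-fold and 1.34-fold, Mcl1 fell to 73.8% of control, and Bad and Bmf fell to 54.9% and 51.8%. The other 5 members did not pass the test. "Rose" and "fell" here mean an adjusted p under 0.05 over all 14807 genes tested (edgeR quasi-likelihood test, Benjamini-Hochberg). By that rule 5 of 10 members changed, 2 upward and 3 downward, against 36.5% of all genes tested, 18.2% upward and 18.4% downward. Called genes were thus common throughout the transcriptome, and the members' count is read beside that background. The median log2 fold change was -0.16 over the members and -0.01 over all genes tested, and the median of its absolute size was 0.36 over the members and 0.38 over all genes tested. The CPM values of the groups did not overlap in 7 members, against 54.0% of all genes tested. Without shCon 1, 6 of 10 members passed, beside 55.3% of all genes. Without shCopa 1, 2 or 3, the counts were 3, 2 and 3 members, beside 24.5%, 23.5% and 23.3% of all genes.

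**Figure D1:**
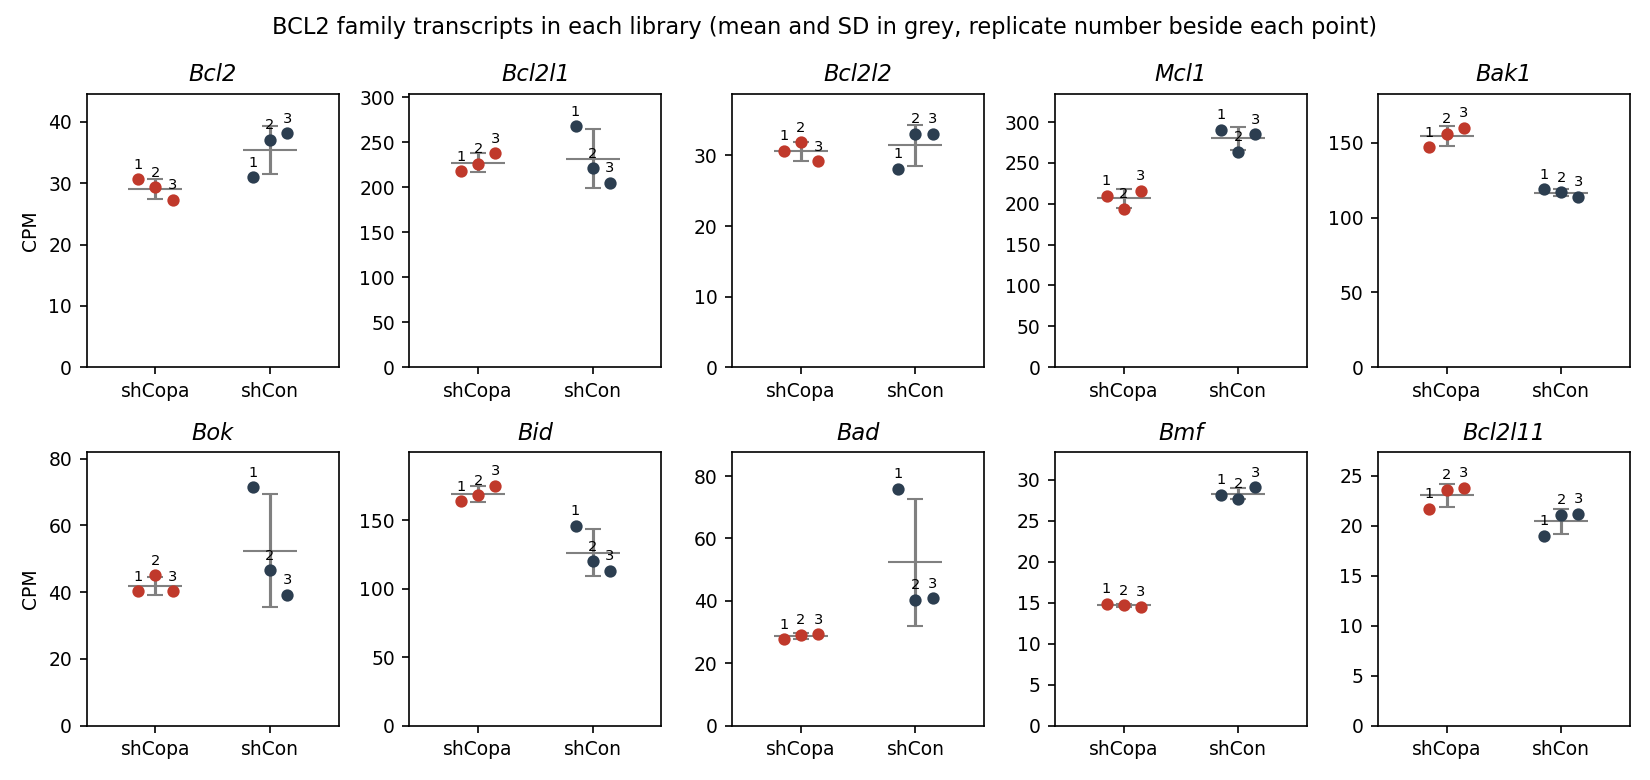
CPM of each member in every library, shCopa left of shCon, with the replicate number beside each point and the group mean and SD in grey; each vertical axis starts at 0. The groups do not overlap for Bcl2, Mcl1, Bak1, Bid, Bad, Bmf and Bcl2l11. Taken on the log2 scale, shCon 1 stands farthest above the mean of the other shCon libraries for Bad and Bok.

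The promoters of Mcl1, Bak1 and Bid are shown because these members changed and have a single listed transcription start, so that 1 sequence stands for the gene. They are given 5′ to 3′ from RefSeq on GRCm38.p6, 250 bases before to 50 after the start. Capitals mark matches to the motifs searched. Mcl1 lies at chr3:95658471-95658770 on the plus strand, Bak1 at chr17:27028578-27028877 on the minus strand and Bid at chr6:120916775-120917074 on the minus strand.
Mcl1: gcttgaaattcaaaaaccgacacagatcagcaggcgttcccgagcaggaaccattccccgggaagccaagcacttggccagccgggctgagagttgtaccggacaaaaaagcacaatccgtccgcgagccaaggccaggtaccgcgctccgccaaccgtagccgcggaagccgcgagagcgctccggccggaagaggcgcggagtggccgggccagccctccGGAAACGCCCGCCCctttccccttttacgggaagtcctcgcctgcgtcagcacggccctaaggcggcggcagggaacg
Bak1: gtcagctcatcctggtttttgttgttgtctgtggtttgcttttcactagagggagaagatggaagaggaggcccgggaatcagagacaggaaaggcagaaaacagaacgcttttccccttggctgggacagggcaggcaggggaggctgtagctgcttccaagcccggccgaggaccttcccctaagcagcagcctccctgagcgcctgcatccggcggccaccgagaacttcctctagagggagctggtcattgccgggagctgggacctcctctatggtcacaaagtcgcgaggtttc
Bid: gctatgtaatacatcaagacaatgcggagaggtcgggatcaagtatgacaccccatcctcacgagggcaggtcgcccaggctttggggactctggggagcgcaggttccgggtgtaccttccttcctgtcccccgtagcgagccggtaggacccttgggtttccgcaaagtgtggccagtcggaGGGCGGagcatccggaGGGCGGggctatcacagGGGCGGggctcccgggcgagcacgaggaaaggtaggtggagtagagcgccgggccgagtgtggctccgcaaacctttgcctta
All 10 members matched the promoter table, with 16 starts in all. Both strands were searched for an E-box (CACGTG), an interferon-stimulated response element (GAAA, any 2 bases, GAAA), an NF-kB site (GGG, any 2 bases, TTTCC), a CEBP-ATF composite (TGATGNAAT), a forkhead site (GTAAACA), a CRE (TGACGTCA), a TATA box (TATAAA), a GC box (GGGCGG) and a CCAAT box (CCAAT). In Mcl1 the capitals are an NF-kB match that overlaps a GC box, both on the strand opposite to the printed one. An NF-kB match is held by 1.63% of all 32851 promoters of this length, and among the members by Mcl1 and by 1 of 3 starts of Bcl2l1. In Bid the capitals are 3 GC boxes. A GC box is held by 35.7% of all promoters and by 9 of the 16 member promoters. Bak1 holds none of the motifs searched, hence no capitals. No member promoter held the interferon element (3.44% of all promoters), the E-box (7.15%), the CEBP-ATF composite (0.965%), the CRE (1.79%) or the TATA box (13.6%). The forkhead site was in 1 of the 2 Bcl2l11 promoters (3.65% of all promoters), and the CCAAT box in 5 member promoters, of Bad, Bcl2l11 and Bmf (37.4% of all). The GC content of the member promoters had a median of 61.0% and ran from 49.3% to 76.0%, with a median of 52.7% over all promoters. A match describes letters only. Bad has 2 listed starts and Bmf 3, and counts per gene do not say which of them was used.

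Among the guardians, Mcl1 was the member that changed. Mcl1 (ENSMUSG00000038612), a short-lived guardian that binds BAK1 and BH3-only proteins, was at 210, 194 and 216 CPM in shCopa and at 291, 264 and 285 CPM in shCon. Every shCopa library was below every shCon library. The means were 207 ± 11 CPM in shCopa and 280 ± 14 CPM in shCon (SD, n = 3 each); the fitted log2 change was -0.44 ± 0.09 (SE; 95% interval -0.65 to -0.23; edgeR adjusted p = 0.00736). Without shCopa 2 its log2 fold change was -0.40 and the call was lost (edgeR adjusted p = 0.0514).

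Bcl2l1 (ENSMUSG00000007659) encodes BCL-XL, the guardian that, like MCL1, holds BAK1. It was at 218, 226 and 238 CPM in shCopa and at 268, 221 and 205 CPM in shCon. The groups overlapped, with the shCopa libraries inside the range of the shCon ones. Its log2 fold change was -0.02 ± 0.12 (edgeR adjusted p = 0.890), with a 95% interval of -0.30 to 0.25. That interval does not reach the estimate for Mcl1, but it overlaps the Mcl1 interval of -0.65 to -0.23. The difference between these members was not tested.

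Bcl2 (ENSMUSG00000057329), the founding guardian of the family, was at 30.6, 29.3 and 27.3 CPM in shCopa and at 31.0, 37.1 and 38.1 CPM in shCon. The groups did not overlap, though shCopa 1 and shCon 1 nearly met. The log2 fold change of -0.28 ± 0.11 had an unadjusted p of 0.0375 and did not pass after adjustment over all genes (edgeR adjusted p = 0.0857). Without shCon 1 it was -0.37 and passed (edgeR adjusted p = 0.00054). Bcl2l2 (ENSMUSG00000089682), which encodes the guardian BCL-W, was at 30.7, 31.9 and 29.2 CPM in shCopa and at 28.1, 33.1 and 33.1 CPM in shCon. Its groups overlapped, with a log2 fold change of -0.04 ± 0.10 and a 95% interval of -0.28 to 0.20 (edgeR adjusted p = 0.793).

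Of the pore-forming effectors, Bak1 rose and Bok did not pass. Bak1 (ENSMUSG00000057789), whose product sits in the outer mitochondrial membrane and oligomerises into pores, was at 147, 156 and 160 CPM in shCopa and at 119, 117 and 114 CPM in shCon. All shCopa libraries lay above all shCon libraries, and both groups were tight. The means were 155 ± 6.58 CPM in shCopa and 117 ± 2.39 CPM in shCon (SD, n = 3 each), a 1.32-fold rise (log2 0.40 ± 0.08, edgeR adjusted p = 0.00744). Bok (ENSMUSG00000026278), an effector-like member whose protein is kept low by proteasomal turnover, was at 40.3, 45.0 and 40.2 CPM in shCopa and at 71.4, 46.6 and 39.2 CPM in shCon. The groups overlapped, and shCon 1 alone stood high. Its log2 fold change of -0.32 ± 0.21 (95% interval -0.82 to 0.17; edgeR adjusted p = 0.269) was -0.04 without shCon 1.

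The BH3-only members moved in both directions. Bid (ENSMUSG00000004446) encodes the protein that caspase-8 cleaves to carry death receptor signals to mitochondria. It was at 164, 168 and 175 CPM in shCopa and at 146, 120 and 113 CPM in shCon. The groups did not overlap, and shCon 1 was the closest control to the shCopa libraries. The means were 169 ± 5.32 CPM in shCopa and 126 ± 17.4 CPM in shCon (SD, n = 3 each), a 1.34-fold rise (log2 0.42 ± 0.11, edgeR adjusted p = 0.0240). The call of Bid was lost when any 1 library other than shCon 1 was left out, with log2 fold changes of 0.34 to 0.44 in those fits (edgeR adjusted p = 0.0697 to 0.0953), and without shCon 1 the log2 fold change was 0.54.

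Bmf (ENSMUSG00000040093), whose product is held on the actin cytoskeleton through a dynein light chain until stress frees it, had the largest fall and the smallest adjusted p of the 10 members in the fit of all 6 libraries. It was at 14.9, 14.7 and 14.5 CPM in shCopa and at 28.2, 27.7 and 29.1 CPM in shCon. The groups were far apart relative to the spread within each. The means were 14.7 ± 0.206 CPM in shCopa and 28.4 ± 0.708 CPM in shCon (SD, n = 3 each); the fitted log2 change was -0.95 ± 0.09 (95% interval -1.17 to -0.73; edgeR adjusted p = 0.000341). It stayed past the threshold in each fit that left out 1 library, with log2 fold changes of -0.97 to -0.94.

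Bad (ENSMUSG00000024959) encodes a sensitiser that binds BCL2, BCL-XL and BCL-W and that survival kinases inactivate by phosphorylation. It was at 27.8, 29.1 and 29.3 CPM in shCopa and at 75.9, 40.3 and 40.9 CPM in shCon. All shCopa libraries were below all shCon libraries, and shCon 1 was far above the other controls. The means were 28.8 ± 0.797 CPM in shCopa and 52.4 ± 20.4 CPM in shCon (SD, n = 3 each); the fitted log2 change was -0.86 ± 0.24 (95% interval -1.44 to -0.29; edgeR adjusted p = 0.0285). Without shCon 1 the log2 fold change was -0.50 and passed (edgeR adjusted p = 1.48e-05), so the size of the fall depended on that library. Leaving out 1 shCopa library, whichever it was, left Bad short of the threshold (edgeR adjusted p = 0.0892 to 0.0986).

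Bcl2l11 (ENSMUSG00000027381), which encodes BIM, an activator that binds every guardian, was at 21.7, 23.6 and 23.8 CPM in shCopa and at 19.0, 21.1 and 21.2 CPM in shCon. The groups did not overlap but lay close together. The log2 fold change of 0.17 ± 0.10 did not pass (95% interval -0.07 to 0.41; edgeR adjusted p = 0.224). An increase beyond 0.41 on the log2 scale lies outside that interval.

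**Figure D2:**
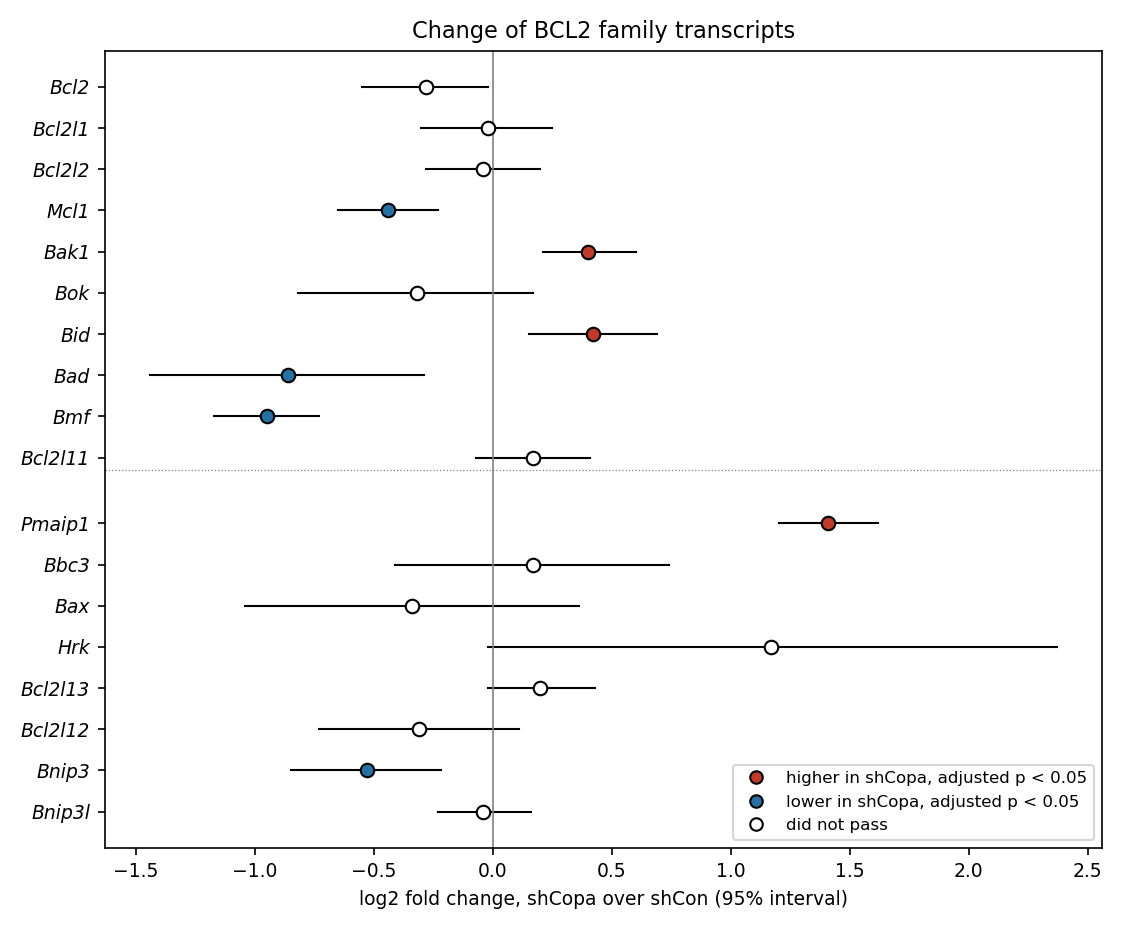
Log2 fold change of shCopa over shCon with its 95% interval from the edgeR fit, for the 10 members above the dotted line and the 8 other tested family genes below it. Filled points passed the threshold: Bak1, Bid and Pmaip1 upward, Mcl1, Bad, Bmf and Bnip3 downward.

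shCon 1 differed from its group in the members as in the rest of the genes. On the log2 scale, with 0.1 CPM added, Bad was 0.90 and Bok 0.73 higher in shCon 1 than in the mean of shCon 2 and 3, while 90% of all tested genes lay between -0.99 and 0.89. Bcl2l1 and Bid were 0.33 higher, Mcl1 0.08, Bak1 0.04 and Bmf -0.01, and Bcl2 was -0.28, Bcl2l2 -0.24 and Bcl2l11 -0.16. Mcl1, Bak1, Bid, Bad and Bmf all passed without shCon 1.

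Reads that overlapping genes share may touch 5 members. Estimated counts of Bcl2, Bcl2l2, Bak1, Bid and Bad were not whole numbers in at least 2 libraries, and in the GENCODE M21 annotation each of these has an exon that overlaps another gene. The other 5, among them Mcl1 and Bmf, had whole counts in every library and no such overlap. Exons of Bad overlap Gpr137 on the opposite strand. Gpr137 was at 21.1, 24.4 and 22.3 CPM in shCopa and at 38.1, 25 and 23.8 CPM in shCon, again highest in shCon 1, with a fitted log2 change of -0.36 ± 0.19 (edgeR adjusted p = 0.179). Exons of Bid overlap Bcl2l13 on the opposite strand, at 83.2 to 88.9 CPM in shCopa and 68.0 to 80.3 CPM in shCon. The fitted log2 change of Bcl2l13 was 0.20 ± 0.10 (edgeR adjusted p = 0.136). Exons of Bak1 overlap Ggnbp1, which reached at most 2.68 CPM. Bcl2l2 shares its strand with the overlapping Gm20521, at 58.5 to 67.2 CPM in shCopa and 61.9 to 82.8 CPM in shCon. Without the strand setting of the counting, it is not known how reads within an overlapping stretch were divided between a gene and its opposite-strand partner. Reads outside that stretch are not affected.

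Levels were compared between members per kilobase of annotated exon (CPM per kb). In shCopa the order was Bak1 at 64.2 ± 2.74, Mcl1 at 60.4 ± 3.22, Bcl2l1 at 49.6 ± 2.23 and Bid at 47.6 ± 1.5 CPM per kb (SD, n = 3). Then came Bok at 22.7, Bad at 11.2, Bcl2l2 at 6.85, Bcl2 at 3.18, Bcl2l11 at 2.87 and Bmf at 2.80 CPM per kb. Neighbours whose library ranges overlapped were Bak1 with Mcl1, Bcl2l1 with Bid, and Bcl2l11 with Bmf. In shCon, Mcl1 led at 82.0 ± 4.09 CPM per kb, above Bcl2l1 at 50.4 ± 7.16, Bak1 at 48.5 ± 0.995 and Bid at 35.6 ± 4.90 CPM per kb (SD, n = 3). They were followed by Bok at 28.5, Bad at 20.5, Bcl2l2 at 7.05, Bmf at 5.40, Bcl2 at 3.87 and Bcl2l11 at 2.54 CPM per kb. There the ranges of Bcl2l1 and Bak1, of Bid and Bok, and of Bok and Bad overlapped. Mcl1 thus stood alone at the top in shCon and shared the top with Bak1 in shCopa. Per kilobase of coding sequence Bcl2l1 ranked first in both groups, at 298 CPM per coding kb in shCopa and 304 in shCon, though its range overlapped that of Bid in shCopa and of Mcl1 in shCon, so the order of the members depends on the length used. Bad, for example, was in place 6 per exon length and 9 per coding length in shCopa, below Bcl2l2, Bcl2 and Bcl2l11 by the second measure.

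**Figure D3:**
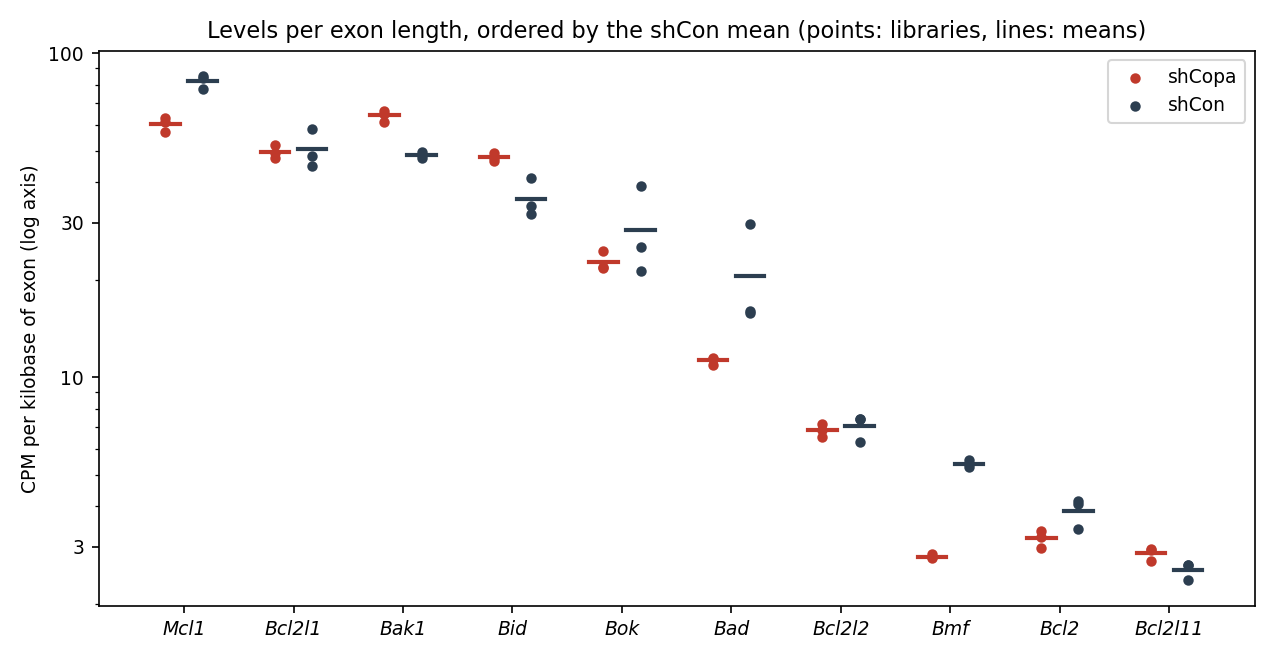
Level of each member in CPM per kilobase of exon on a log axis, ordered by the shCon mean; points are libraries, short lines are means, and shCopa is drawn left of shCon. The 4 members with the highest levels are Mcl1, Bcl2l1, Bak1 and Bid in both groups, and Bmf is the lowest in shCopa.

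Summed over the 4 guardians, the level was 120 ± 4.15 CPM per kb in shCopa and 143 ± 8.7 CPM per kb in shCon (SD, n = 3 each). Summed over the 6 pro-apoptotic members, it was 151 ± 4.94 CPM per kb in shCopa and 141 ± 22.6 CPM per kb in shCon. The guardians made up 45.0%, 43.1% and 44.6% of the summed level of all 10 in the shCopa libraries, and 47.9%, 51.1% and 52.8% in the shCon libraries. The shCopa shares were all below the shCon ones, by per-kilobase levels of exon and of coding sequence alike. Bcl2l1 stood at 0.775, 0.866 and 0.823 of the Mcl1 level in shCopa and at 0.688, 0.622 and 0.536 of it in shCon, again without overlap. Per coding length the same ratio was 1.36, 1.51 and 1.44 in shCopa and 1.20, 1.09 and 0.937 in shCon, so which of these guardians is higher depends on the length used. Among the pro-apoptotic members, Bak1 and Bid together held 73.7%, 73.0% and 74.8% of the summed level in shCopa and 54.3%, 62.7% and 63.6% in shCon. These sums restate the changes of single members and carry no test of their own. Family genes outside the 10 are left out of them, so the shares hold for this list only. Bax, for example, was at 57.9 ± 1.77 CPM per kb in shCopa and 73.4 ± 36.3 in shCon (SD, n = 3 each). Pmaip1 was at 61.3 ± 3.33 CPM per kb in shCopa and 23.1 ± 0.963 in shCon.

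Of 15 other BCL2 family genes, 8 could be tested, with a median log2 fold change of 0.06. Of these, 1 rose, 1 fell and 6 did not pass, beside 36.5% of all genes tested that changed. Pmaip1 (ENSMUSG00000024521), which encodes NOXA, a BH3-only protein that binds MCL1 and promotes its degradation, rose 2.66-fold. It was at 165, 160 and 178 CPM in shCopa and at 62.3, 60.8 and 66.0 CPM in shCon, with the groups far apart (log2 fold change 1.41 ± 0.09, edgeR adjusted p = 6.83e-05). Bnip3, a mitophagy receptor of the outer membrane, fell to 23.5, 27.9 and 26 CPM in shCopa, against 43.5, 32.5 and 35.9 CPM in shCon (log2 fold change -0.53 ± 0.14, edgeR adjusted p = 0.0189). Its call was lost without shCopa 1 or shCopa 3. Bax, the effector that acts beside BAK1, was at 89.3, 89.9 and 94.4 CPM in shCopa and at 182, 82.5 and 82.8 CPM in shCon. The shCopa values lay between shCon 1 and the other controls, and the log2 fold change of -0.34 ± 0.30 did not pass (edgeR adjusted p = 0.408). Without shCon 1 it was 0.14. Bbc3, which encodes the p53-induced activator PUMA, did not pass (0.17 ± 0.25 on the log2 scale, edgeR adjusted p = 0.632) but passed without shCon 1, where its log2 fold change was 0.52 (edgeR adjusted p = 8.03e-05), and with offsets for exon length and GC content, an alternative chosen after seeing the data, where it was 0.81 (edgeR adjusted p = 0.000218). Hrk, at 1.49 ± 0.246 CPM in shCopa and 0.650 ± 0.508 CPM in shCon (SD, n = 3 each), had a log2 fold change of 1.17 ± 0.51, Bcl2l13 of 0.20 ± 0.10, Bcl2l12 of -0.31 ± 0.18 and the mitophagy receptor Bnip3l of -0.04 ± 0.08, and none of these passed in the fit of all 6 libraries. Without shCon 3 Hrk was 2.02 and passed (edgeR adjusted p = 0.0112), and with length and GC offsets Bcl2l13 was 0.18 and passed (edgeR adjusted p = 0.0473). Bik, Bcl2a1a, Bcl2a1b, Bcl2a1d, Bcl2l10, Bcl2l14 and Bcl2l15 had at most 8 counts in any library and were not tested. The Bcl2a1 genes are near-identical copies, so reads among them may have been divided.

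Downstream of the mitochondria, 1 of 11 apoptosome, caspase and mitochondrial death factor genes rose, 4 fell and 6 did not pass (median log2 fold change -0.20). The share called over all genes tested was 36.5%. Apaf1, the scaffold of the apoptosome, rose to 120, 125 and 138 CPM in shCopa, against 43.8, 64.7 and 65.2 CPM in shCon (log2 fold change 1.14 ± 0.16, edgeR adjusted p = 0.00170). Casp9, the caspase it activates, fell (-0.43 ± 0.10 on the log2 scale, edgeR adjusted p = 0.0155), as did Aifm1, a flavoprotein that can leave mitochondria to act in the nucleus (-0.42 ± 0.08, edgeR adjusted p = 0.00640). The fall of Casp9 was lost without shCon 2 or any 1 shCopa library. Of the 11 genes, 2 passed in each fit without 1 shCopa library, 3 without shCon 2 and 8 without shCon 1. The shares of all genes that passed in those fits were 23.3% to 24.5%, 29.9% and 55.3%.

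Among 8 genes of inhibitor of apoptosis proteins, 7 were tested, with a median log2 fold change of 0.92. Of these, 4 rose and 3 did not pass, beside 36.5% of all genes tested that changed. Birc3 and Birc2, which encode the ubiquitin ligases cIAP2 and cIAP1, had log2 fold changes of 1.32 ± 0.11 (edgeR adjusted p = 0.00018) and 0.92 ± 0.09 (edgeR adjusted p = 0.000276), and Naip2 of 1.19 ± 0.16 (edgeR adjusted p = 0.00129). Naip2 belongs to a cluster of close copies, so its reads may be divided. The other gene that rose was Naip5 (1.42 ± 0.21, edgeR adjusted p = 0.00209). The direct caspase inhibitor Xiap overlapped between groups, at 134, 123 and 115 CPM in shCopa and 88.5, 121 and 130 CPM in shCon. Xiap, Birc6 and Birc5 did not pass, with log2 fold changes of 0.13 ± 0.15, 0.30 ± 0.27 and -0.29 ± 0.13, so the list did not rise as a whole. The count of 4 was the same in each fit that left out 1 library, while 23.3% to 55.3% of all genes passed in those fits.

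In the death receptor pathway, which reaches the family through Bid, 5 of 10 tested genes rose, 2 fell and 3 did not pass (median log2 fold change 0.34). Over all genes tested, 36.5% were called. Mlkl, the executioner of necroptosis, rose by 1.16 ± 0.10 on the log2 scale (edgeR adjusted p = 0.00018) and Tnfrsf10b, the mouse receptor of TRAIL, by 0.91 ± 0.09 (edgeR adjusted p = 0.000419). Tradd, an adaptor of TNF receptor 1, fell by 2.59 on the log2 scale, with an SE of 0.26, to 3.23, 3.98 and 3.29 CPM in shCopa, against 29.4, 17.7 and 16.1 CPM in shCon (edgeR adjusted p = 0.000405). Casp8 (0.55 ± 0.09), Fas (0.56 ± 0.14) and Fadd (0.43 ± 0.13) also rose (edgeR adjusted p = 0.0035, 0.0161 and 0.0318). Tnfrsf1a fell (-0.73 ± 0.10, edgeR adjusted p = 0.00136). Ripk3, the 1 gene of the list not tested, had at most 8 counts in any library. Without shCopa 1, 2 or 3, the counts that passed were 5, 6 and 5, beside 24.5%, 23.5% and 23.3% of all genes.

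Of 28 binding partners and modifiers of the family's proteins, 3 rose, 5 fell and 20 did not pass (median log2 fold change -0.07). Those with the smallest adjusted p were Akt2, a kinase that phosphorylates BAD (-0.74 ± 0.09, edgeR adjusted p = 0.00102), Itpr3, an endoplasmic reticulum calcium channel bound by guardians (-0.62 ± 0.13, edgeR adjusted p = 0.00914), and Tmbim6, an endoplasmic reticulum protein known as BAX inhibitor 1 (-0.57 ± 0.13, edgeR adjusted p = 0.0110). The call of Tmbim6 was lost without shCopa 1 (edgeR adjusted p = 0.0552). The other kinases of the list did not share the direction of Akt2. Pim1 rose (0.66 ± 0.17, edgeR adjusted p = 0.0195) and Rps6ka1 fell (-0.41 ± 0.09, edgeR adjusted p = 0.0118). Akt1, at 726 CPM in shCopa and 602 CPM in shCon, did not pass (0.27 ± 0.09, edgeR adjusted p = 0.058). Neither did Pim3 (0.43 ± 0.23, edgeR adjusted p = 0.192). Of the 28, 16 passed without shCon 1 and 3 or 4 without 1 shCopa library, beside 55.3% and 23.3% to 24.5% of all genes. Among 14 tested transcription factors known to act on BCL2 family genes, 4 rose, 3 fell and 7 did not pass (median log2 fold change 0.12). Beside both lists, 36.5% of all genes tested were called. Myc rose by 2.08 ± 0.11 and Ddit3, which encodes the stress factor CHOP, by 1.75 ± 0.21 on the log2 scale (edgeR adjusted p = 4.45e-05 and 0.000829). Without shCopa 1 or shCopa 3, 4 of the 14 passed, beside 24.5% and 23.3% of all genes. Foxo3, which activates Bcl2l11 in other settings, had a log2 fold change of -0.62 ± 0.10 (edgeR adjusted p = 0.00236).

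**Figure D4:**
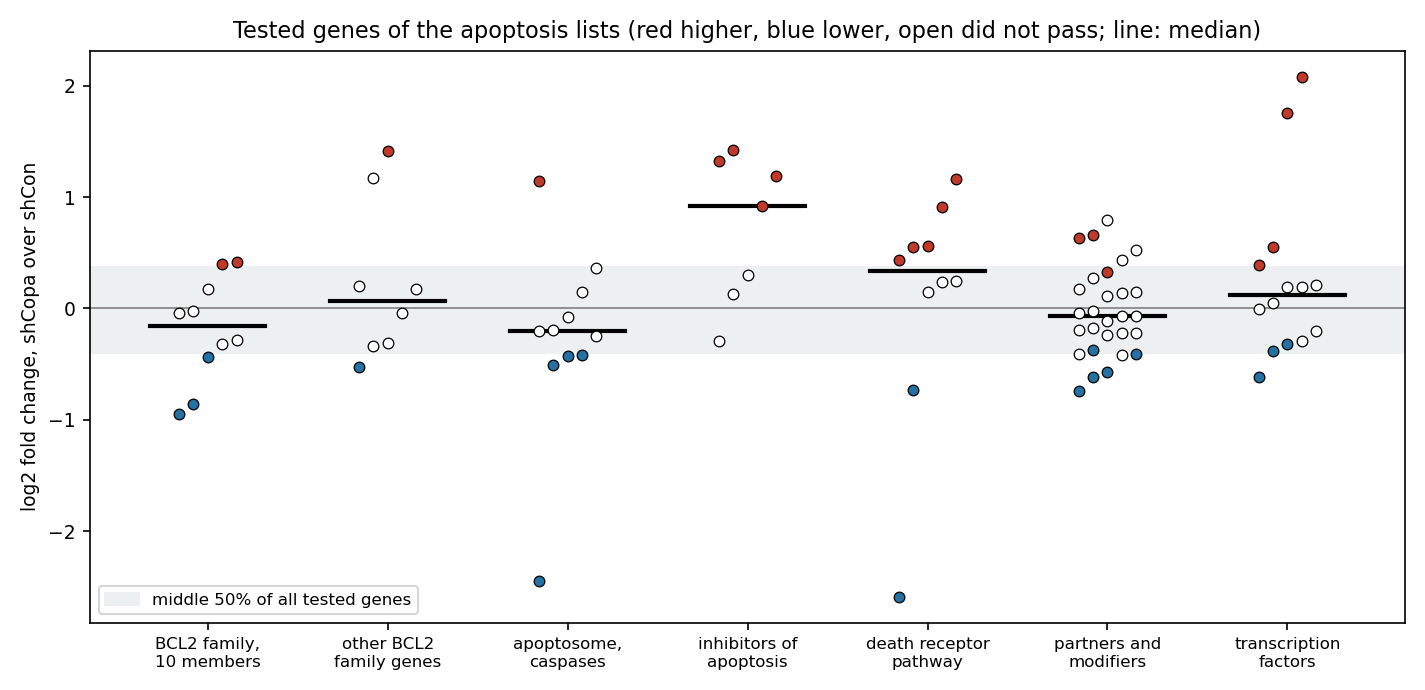
Log2 fold change of shCopa over shCon for the tested genes of each list, with red points higher, blue points lower and open points not past the threshold; lines are medians and the grey band holds the middle 50% of all tested genes. Among the lists plotted, the inhibitors of apoptosis have the highest median, 0.92, and the 10 members straddle 0. In that list Birc2, Birc3, Naip2 and Naip5 passed upward, while Xiap, Birc5 and Birc6 did not pass.

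Across settings, Bmf and Bak1 passed in the reported fit and in each of the 15 alternatives, Mcl1 in all but the fit without shCopa 2, and Bid and Bad in fewer.

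**Figure D5:**
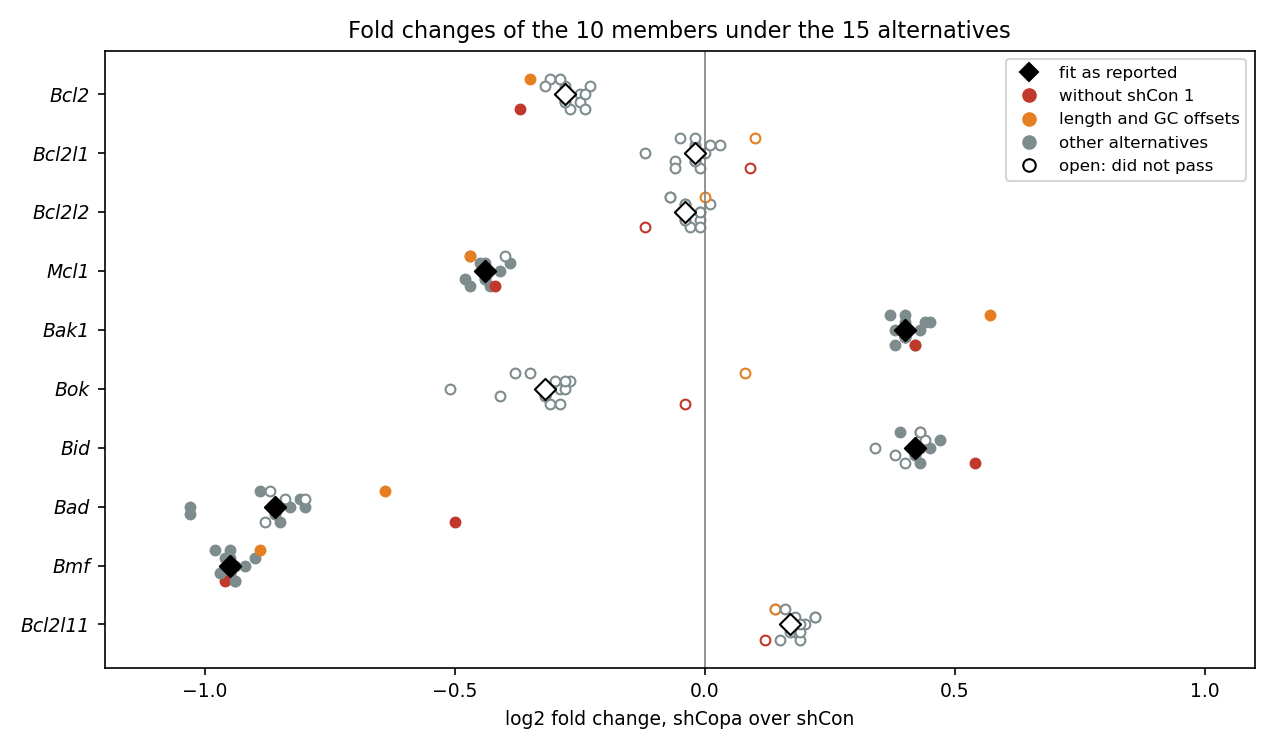
Log2 fold change of each member in the reported fit (diamond) and in 15 alternatives (circles), with filled symbols past the threshold and the fit without shCon 1 and the fit with length and GC offsets in colour. Bmf stays between -0.98 and -0.89, Bak1 between 0.37 and 0.57, and Bad spans -1.03 to -0.50.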

How the data were processed

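For each of the 6 libraries the authors deposited estimated counts by Ensembl identifier; between 10.6% and 11.9% of a library's values had a fractional part, and all were rounded. The tools named in the submitters' processing notes are Trimmomatic, HISAT2 2.0.5, featureCounts, HTSeq and DESeq2, with the build GRCm39. Which one counted, the annotation release and the strand option were not given in the sources used here. Symbols (52081 of 55414 identifiers), exon lengths, GC content and gene overlaps came from GENCODE M21 on GRCm38, and promoters from RefSeq on GRCm38.p6.

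The 14807 genes kept by filterByExpr entered a test in edgeR 4.0.16 under R 4.3.3 (TMM factors, robust quasi-likelihood fit, Benjamini-Hochberg adjustment, threshold 0.05). CPM use TMM-scaled library sizes. SEs and 95% intervals were derived from each fitted change and its F value. On simulated counts for 14807 genes, calls recovered 20.9% of 67 genes changed 1.5-fold, 76.1% of 67 changed 2-fold and 93.9% of 66 changed 4-fold, with 11 false calls among 138; far fewer genes were changed there than were called in the real data, so these shares do not give the power of the reported test. A count of 3 equals 0.123 to 0.152 CPM, counting error only. The alternatives were DESeq2 1.42.0, limma-voom (limma 3.58.1), other scaling factors and filters, a replicate block, each library left out, and length and GC offsets chosen after seeing the data.

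The members and lists were chosen with earlier results of these data known. Every member, every tested family gene, Copa and, per list, at most 3 called genes lowest in adjusted p were named. Overlapping genes were named for their position. Xiap, Naip5, Birc5, Birc6, Akt1, Pim1, Pim3, Rps6ka1, Fas, Fadd, Casp8, Tnfrsf1a and Ripk3 were named after their values were seen.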

Additional observations from a re-analysis of the deposited data

How the results depend on the processing

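Of 150 member results (10 members under 15 alternatives), 130 kept their direction and their side of the threshold, 11 lost the call, 2 gained it and 7 changed sign; the causes were not tested. Bcl2l1 was 0.00 with upper-quartile factors, 0.03 with library totals only, 0.10 with length and GC offsets, and -0.12 to 0.09 when 1 library was left out. Bcl2l2 was 0.01 and Bnip3l 0.02 with library totals only. With the offsets, Bok was 0.08 and Bax 0.25. Leaving out 1 library gave -0.55 to 0.14 for Bax, -0.04 to 0.52 for Bbc3 and -0.07 to 0.00 for Bnip3l. The offsets moved the counts of called genes to 4 of the other family genes, 8 of the apoptosome list, 18 of the partners and 11 of the transcription factors, beside 45.9% of all genes. Leaving out 1 library gave 3533 to 8439 calls over all genes, 23.3% to 55.3% of those tested. The range was 2 to 6 among the members, 1 to 3 among the other family genes and 2 to 8 in the apoptosome list. It was 3 to 16 among the partners and 4 to 10 among the transcription factors. Among these fits the one without shCon 1 gave the highest count for all genes, the members, the apoptosome list, the partners and the transcription factors. With coding lengths the guardian share was 48.0% in shCopa and 54.5% in shCon.

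Replicate numbers did not pair the libraries: deviations of same-numbered libraries correlated at -0.162, -0.0583 and -0.114, and 0 of 6 libraries correlated best with their own number. Under the replicate block the calls were 3 members (beside 26.4% of all genes), 1 of the other family genes, 3 of the apoptosome list and 4 of the transcription factors. The 5 members that did not pass are not shown to be unchanged.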
